A study of Mus musculus with 17 samples.

Results

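Wild-type and *Usb1* knockout mouse embryonic stem cells (mESCs) were compared after 3 days of retinoic acid (RA) treatment, in 3 libraries per genotype. These 6 of the 17 libraries of the series were chosen by their labels alone, and a gene entered the comparison when it had at least 1 TPM, the share of reads of a gene scaled by its length, in at least 3 of the 6. The cells were the mouse line R1/E, and the series also holds both genotypes at day 0, before RA, and at day 1. All day 3 cells were differentiated with RA for the same time and differ by genotype. The knockout cells were of 1 line (KO-1), made by CRISPR/Cas9 with guide RNAs that shift the reading frame near the start of the protein, so the knockout and any other difference between this clone and the wild-type cells cannot be told apart.

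*Usb1* is a 3′-5′ exoribonuclease that trims the uridine tail of U6 snRNA, a core RNA of the spliceosome, and leaves a cyclic phosphate at its end. RA enters the nucleus, binds its receptors (RAR with RXR) on direct repeats in DNA, and induces Hox genes and the Cyp26 enzymes that degrade it, while the pluripotency factors are shut down. In stem cell cultures RA can also drive a share of cells towards primitive endoderm, the lineage that expresses *Gata4*, *Gata6* and *Sox17* and lays down a basement membrane, and fibroblast growth factor (FGF) signalling through ERK acts in both the exit from pluripotency and that lineage.

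Sequencing depth was alike in the 6 libraries, with 15926491 to 16361909 reads on genes in the wild-type and 15879019 to 17300186 in the knockout libraries, as recovered from the deposited TPM. Knockout replicate 1 stood apart in its low values: 21898 genes were above 0 TPM in it, against 24150 and 24705 in knockout replicates 2 and 3 and 23878 to 24208 in the wild-type libraries. It held 1224 genes with 1 read, against 2336 to 2467 in the other 5. Wild-type replicate 1 of day 0, used here for levels at day 0, the early response and an alternative fit of all 17 libraries, held 17090 genes above 0 TPM against 22314 in replicate 2. Pearson's r of log2(TPM + 1) was 0.964 to 0.977 between libraries of 1 genotype and 0.953 to 0.967 between genotypes, which is given as a description over the genes tested.

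Changes are given as log2 fold changes, knockout minus wild-type, on the log2(TPM + 1) scale, with standard errors and Benjamini-Hochberg adjusted p-values from limma over all genes tested. A gene was called, and is said here to have risen or fallen, when its adjusted p was under 0.05 and its change reached 2-fold. Of 17331 genes tested, 251 were called (1.45%), of which 106 rose (0.612%) and 145 fell (0.837%) in the knockout. At an adjusted p under 0.05 with any fold, 812 genes passed (4.69%), 350 higher (2.02%) and 462 lower (2.67%). The wild-type and knockout values of 4445 genes did not overlap (25.6%). Of 13244 protein-coding genes, 95 rose and 97 fell, and the median log2 fold change of all genes tested was -0.00393. When each library was left out in turn, the number of calls ranged from 143 to 230. It was lowest at 143 without wild-type replicate 1 and 163 without wild-type replicate 2, it was 230 (104 higher, 126 lower) without knockout replicate 1, and 118 genes were called in all 6 of these fits.

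**Figure D1:**
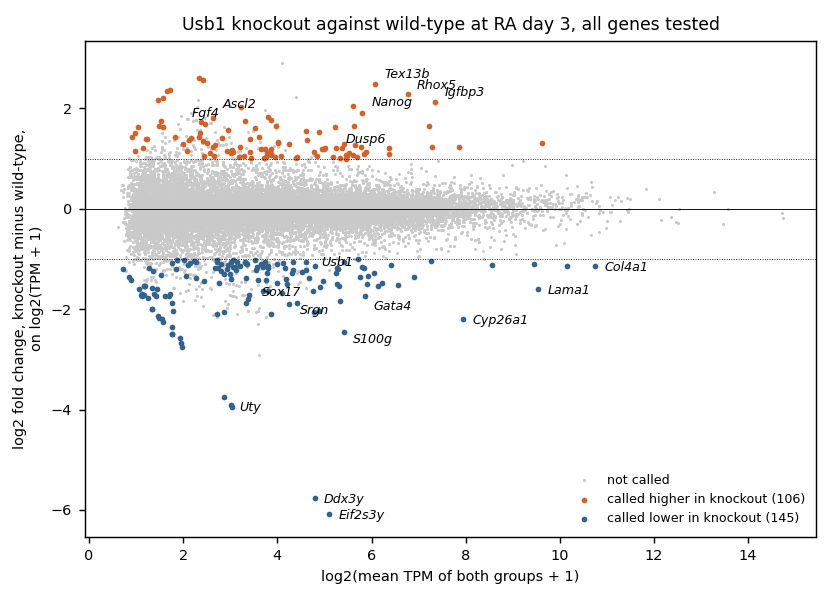
The log2 fold change of each of the 17331 genes tested (vertical axis, knockout minus wild-type at day 3) is plotted against log2 of the mean TPM of both groups plus 1 (horizontal axis); orange points are the 106 genes that rose, blue points the 145 that fell, and dotted lines mark a 2-fold change. *Usb1* lies just inside the lower line at -0.93, and the Y-linked genes *Eif2s3y*, *Ddx3y* and *Uty* are the lowest points named.

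*Usb1* itself had 33.7, 32.0 and 35.8 TPM in wild-type replicates 1 to 3 and 14.7, 17.2 and 20.4 TPM in the knockout replicates. All knockout values were below all wild-type values, and the difference passed the test at under 2-fold (log2 fold change -0.93, SE 0.13, adjusted p = 0.00946). Without knockout replicate 3 the change was -1.04 and was called. The edit shifts the reading frame and leaves most of the transcript in place, so a level per gene is a partial check of the label. Of 17 genes that act on U6 snRNA, *Lsm5*, a subunit of the Lsm2-8 ring that binds the U6 3′ end, was the other one to pass the test, at 38.2, 27.7 and 31.6 TPM in wild-type cells and 55.8, 53.2 and 62.6 TPM in the knockout (0.80, SE 0.13, adjusted p = 0.0159). No gene of this list was called, none of 29 core spliceosome proteins passed the test at any fold, and of 33 SR, hnRNP and other splicing regulators the epithelial regulator *Esrp2* alone did (-0.50, adjusted p = 0.0406). The medians of these lists were 0.0514, 0.0581 and 0.0841. None of 11 tested neighbours of *Usb1* on chromosome 8 passed the test (median 0.0534).

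Most genes of primitive endoderm and its derivatives were lower in the knockout. Of 32 tested members of the list of primitive endoderm and its derivatives, 14 fell (against 0.837% of all genes tested), none rose, and 8 more passed the test at under 2-fold in the same direction. The values of 26 members did not overlap between genotypes (against 25.6% of all genes tested), and the median log2 fold change was -0.842. The count of members that fell stayed at 13 or 14 without each library and under each scaling tried. In bulk samples, fewer cells of a type and less RNA per cell cannot be told apart.

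All 8 transcription factors of this lineage passed the test, and 4 of them fell. *Gata4*, a zinc finger factor of the lineage, had 81.7, 88.8 and 92.7 TPM in wild-type cells and 25.9, 30.5 and 21.4 TPM in knockout replicates 1 to 3 (-1.73, SE 0.13, adjusted p = 0.00102). Its mean was 3.38-fold higher in wild-type cells, with no overlap. *Sox17*, an SRY-box factor of endoderm, had 40.0, 40.3 and 38.6 TPM in wild-type cells and 13.5, 12.6 and 10.4 TPM in the knockout (-1.63, SE 0.11, adjusted p = 0.000837). *Foxq1*, a forkhead factor, fell from a mean of 85.4 ± 4.85 to 33.4 ± 4.65 TPM (SD, n = 3 each; -1.34, adjusted p = 0.00152), and *Hnf4a*, a nuclear receptor of visceral endoderm, from 5.01 ± 0.536 to 1.39 ± 0.484 TPM (-1.34, adjusted p = 0.0166). The call of *Hnf4a* was lost in 4 of the 6 fits that left out 1 library, those without any wild-type replicate and that without knockout replicate 3, at log2 fold changes of -1.42 to -1.30. *Gata6*, an early factor of the lineage, was at 87.5, 84.6 and 96.5 TPM in wild-type cells and 48.4, 53.5 and 52.0 TPM in the knockout, a difference under 2-fold (-0.79, SE 0.08, adjusted p = 0.00284). *Sox7* (-0.77) and *Foxa2* (-0.64) also passed the test at under 2-fold.

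Basement membrane genes, which this lineage makes for Reichert's membrane, fell together with these factors. Of 8 tested, 4 fell and 2 more passed the test at under 2-fold. *Lama1*, the laminin alpha chain of the early embryo, had 1114, 985 and 1265 TPM in wild-type cells and 339, 423 and 353 TPM in the knockout (-1.59, SE 0.12, adjusted p = 0.00104). *Col4a1*, a type IV collagen chain, had 2411, 2206 and 2506 TPM in wild-type cells and 992, 1302 and 962 TPM in the knockout (-1.14, SE 0.13, adjusted p = 0.00459). Neither gene overlapped between genotypes. *Col4a2*, which is transcribed from the same promoter region in the opposite direction, changed by -1.15 and the laminin beta chain *Lamb1* by -1.11. *Nid1*, the nidogen that links laminin to collagen, did not pass the test, with 108 to 149 TPM in wild-type cells and 119 to 177 TPM in the knockout.

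Endocytic receptors of visceral endoderm gave the same direction. *Cubn*, which encodes cubilin, had 82.8, 77.7 and 101 TPM in wild-type cells and 25.4, 33.7 and 31.3 TPM in the knockout (-1.50, SE 0.14, adjusted p = 0.00208). Its partner *Amn* had 38.8, 57.3 and 35.0 TPM in wild-type cells and 14.1, 15.9 and 11.8 TPM in the knockout (-1.56, SE 0.20, adjusted p = 0.00693). In both genes every knockout library was below every wild-type library. The adaptor *Dab2* fell from 116 ± 8 to 52.7 ± 4.28 TPM (-1.13), whereas *Lrp2*, the receptor megalin that works with cubilin, ranged from 114 to 162 TPM in wild-type cells and from 69.0 to 99.5 TPM in the knockout without passing the test (-0.57, adjusted p = 0.136).

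Among secreted and surface products, *Srgn*, the proteoglycan serglycin and an abundant product of parietal endoderm, was the member that changed most. It had 62.2, 64.0 and 58.6 TPM in wild-type cells and 16.3, 21.1 and 12.9 TPM in the knockout (-1.84, SE 0.16, adjusted p = 0.00194). At day 1 *Srgn* was already called lower in the knockout, at means of 4.95 and 0.678 TPM (-1.82, adjusted p = 0.00154). *Ttr*, the transport protein transthyretin, fell from 76.3 ± 7.97 to 29.2 ± 4.72 TPM (-1.36), and *Ihh*, the hedgehog ligand of visceral endoderm, from 37.4 ± 0.785 to 16.3 ± 0.736 TPM (-1.15). Not every marker of the lineage moved. The keratin genes *Krt8* and *Krt18*, which are abundant in simple epithelia, overlapped between genotypes, at 2747 to 2884 and 2590 to 3089 TPM for *Krt8* and 2182 to 2253 and 2001 to 2390 TPM for *Krt18*. The values of *Pdgfra*, a surface marker of primitive endoderm, overlapped at 18.0 to 18.3 TPM in wild-type cells and 17.1 to 19.3 TPM in the knockout, and *Afp* was at 3.37 to 3.79 and 3.79 to 4.26 TPM. *Apob* and *Apoe*, apolipoproteins of visceral endoderm, differed by 0.48 and 0.14 without passing the test. The summed level of the whole list was 17017 to 18572 TPM in wild-type cells and 11123 to 12619 TPM in the knockout.

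**Figure D2:**
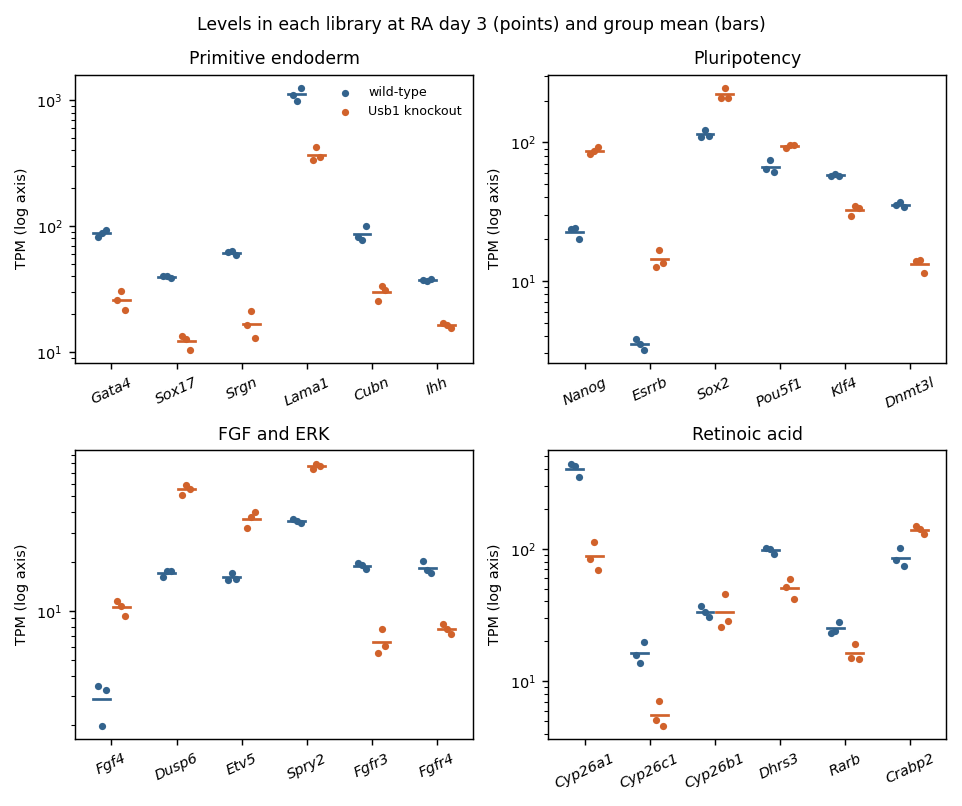
Each point is the TPM of 1 library at day 3 on a log axis, blue for wild-type and orange for *Usb1* knockout, with bars at the mean of 3 libraries, for 6 genes each of primitive endoderm, pluripotency, FGF and ERK, and RA metabolism and reception. The genotypes separate without overlap in all but *Cyp26b1*, whose knockout libraries range from 25.9 to 45.6 TPM around wild-type values of 30.6 to 36.7.

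Some pluripotency factors were higher and others lower in the knockout at day 3. Of 15 tested core pluripotency factors 2 rose (against 0.612% of all genes tested) and 1 fell, and 5 were higher and 3 lower at an adjusted p under 0.05, with a list median of 0.283. *Nanog*, a homeobox factor of the ground state, had 23.5, 24.2 and 20.2 TPM in wild-type cells and 82.0, 86.3 and 93.3 TPM in the knockout (1.90, SE 0.10, adjusted p = 0.00027). The genotypes did not overlap, and the knockout mean was 3.85-fold the wild-type mean. At day 0 the means were 820 TPM in wild-type cells and 811 TPM in the knockout, so the knockout libraries of day 3 were still far below either. *Sox2*, which pairs with Oct4 on DNA, had 109, 123 and 112 TPM in wild-type cells and 210, 249 and 211 TPM in the knockout, just under 2-fold on this scale (0.95, SE 0.09, adjusted p = 0.0024). *Pou5f1*, which encodes Oct4, differed less, with 63.8, 74.7 and 61.2 against 90.7, 95.0 and 95.5 TPM (0.49, SE 0.09, adjusted p = 0.0248). The third member to rise or fall, besides *Nanog* and *Fgf4* (given with the FGF genes), was *Dnmt3l*, the cofactor of de novo DNA methylation, which had 35.4, 37.1 and 34.2 TPM in wild-type cells and 14, 14.2 and 11.3 TPM in the knockout (-1.37, SE 0.11, adjusted p = 0.00129). It was the single gene called among 10 of DNA methylation (list median 0.0198) and was also lower at day 0, at 73.4 against 15.7 TPM.

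Of 12 tested naive pluripotency factors 2 rose (against 0.612% of all genes tested) and none fell. The list median of 0.268 turned to -0.0377 with a filter at 5 TPM. *Esrrb*, an orphan nuclear receptor, had 3.82, 3.49 and 3.18 TPM in wild-type cells and 12.6, 16.8 and 13.4 TPM in the knockout (1.76, SE 0.15, adjusted p = 0.00187), against day 0 means of 440 and 494 TPM. At day 1 it was already called higher in the knockout, at means of 112 and 240 TPM (1.09, adjusted p = 0.000238). *Prdm14*, a PR domain repressor, rose from 0.946 ± 0.429 to 4.19 ± 0.493 TPM (1.44, adjusted p = 0.0189), a call that was lost in each of the 6 fits that left out 1 library, at 1.26 to 1.58. It met the filter of 1 TPM only with the knockout libraries, where it is higher. *Tfcp2l1* (0.77), *Klf2* (0.60) and *Zfp42*, also known as Rex1 (0.52), were higher at an adjusted p under 0.05 and under 2-fold. *Klf4* was lower instead, with 57.6, 58.9 and 57.4 TPM in wild-type cells and 29.2, 34.5 and 33.7 TPM in the knockout (-0.82, SE 0.08, adjusted p = 0.00328). Of 9 tested formative and primed epiblast genes 2 rose (against 0.612% of all genes tested), the ETS factors *Etv4* and *Etv5*, which are also in the FGF list. The neural and epiblast factor *Sox3* was lower under 2-fold (-0.90, adjusted p = 0.0128).

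Most tested FGF and ERK genes were higher in the knockout on average. Of 20 tested, 8 rose and 2 fell (against 0.612% and 0.837% of all genes tested), and the list median was 0.91. Among the 13 targets and feedback regulators of ERK, 7 rose and none fell (median 1.00). *Dusp6*, the phosphatase that dephosphorylates ERK, had 16.1, 17.5 and 17.6 TPM in wild-type cells and 51.0, 58.9 and 55.9 TPM in the knockout (1.64, SE 0.09, adjusted p = 0.000361). *Spry2*, a Sprouty inhibitor of receptor tyrosine kinases, had 36.5, 35.3 and 34.5 TPM in wild-type cells and 73.5, 79.5 and 77.1 TPM in the knockout (1.09, SE 0.07, adjusted p = 0.00069). In both genes every knockout value was more than 2-fold the highest wild-type value. The ETS factors *Etv5* (16.1 ± 0.900 to 36.6 ± 4.05 TPM, 1.14) and *Etv4* (1.73 ± 0.420 to 6.4 ± 1.25 TPM, 1.44), the inhibitors *Spred1* (1.06) and *Spry1* (1.03) and the phosphatase *Dusp4* (1.00) rose as well. Leaving out wild-type replicate 1 ended the calls of *Etv4* (at 1.43) and *Spred1* (0.99), leaving out knockout replicate 1 that of *Spry1* (0.98), and leaving out wild-type replicate 2 or 3 or knockout replicate 2 or 3 that of *Dusp4* (0.92 to 1.00). The immediate early genes *Egr1* and *Fos*, with means of 1.38 and 1.42 TPM and of 8.22 and 8.62 TPM, overlapped between genotypes. *Ier3* was lower at under 2-fold (-0.73).

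Ligands and receptors of the pathway split. *Fgf4*, the autocrine ligand of mESCs, had 3.45, 1.98 and 3.27 TPM in wild-type cells and 11.5, 10.8 and 9.26 TPM in the knockout (1.58, SE 0.20, adjusted p = 0.00693). *Fgfr3* had 19.5, 19 and 17.9 TPM in wild-type cells and 5.52, 7.73 and 6.06 TPM in the knockout (-1.42, SE 0.14, adjusted p = 0.00279). *Fgfr4* also fell, from 18.3 ± 1.53 to 7.76 ± 0.552 TPM (-1.14). *Fgfr1*, the main FGF receptor of mESCs, was higher at under 2-fold (0.47, adjusted p = 0.0183), and *Fgfr2*, a receptor of primitive endoderm, ranged from 44.0 to 48.0 TPM in wild-type cells and from 37.0 to 44.1 TPM in the knockout. *Klb*, the co-receptor beta-Klotho for endocrine FGFs, is not in the list and was among the 12 largest falls, with 42.3, 42.7 and 44.8 TPM in wild-type cells and 7.96, 11.5 and 9.59 TPM in the knockout (-2.07). The count of list members that rose was 6 to 11 without each library and under each scaling and fit tried, and 2 fell in each.

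**Figure D3:**
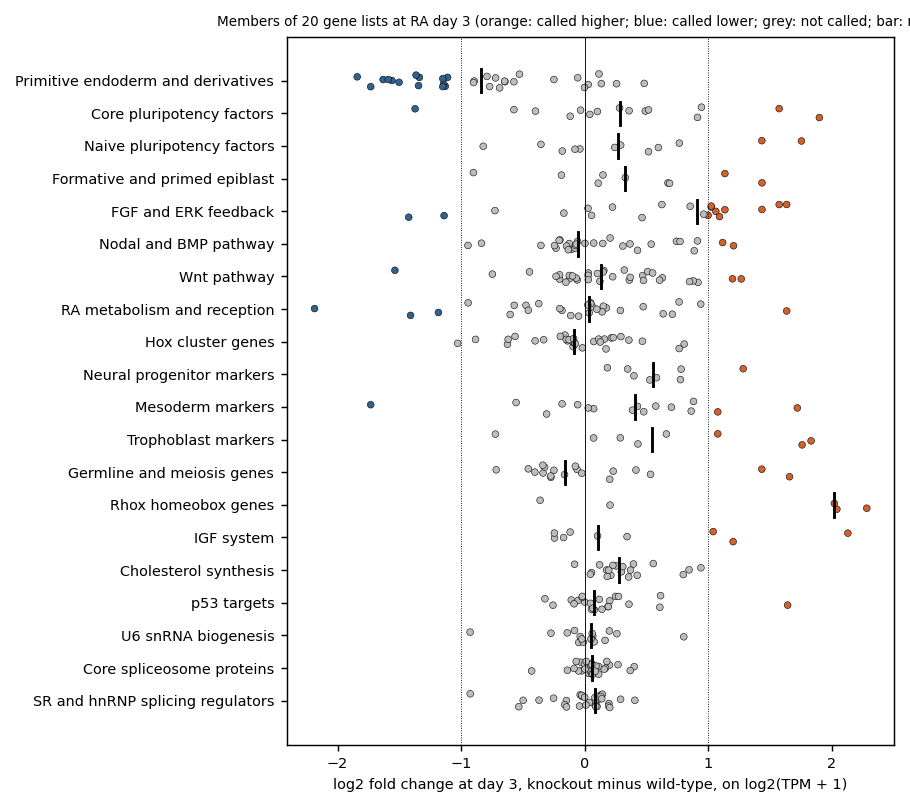
Each point is a tested member of 1 of 20 gene lists, placed by its log2 fold change at day 3 (knockout minus wild-type); orange points rose, blue points fell, grey points were not called and the black bar is the list median. The primitive endoderm median lies at -0.842 and the FGF and ERK median at 0.91, while the medians of the spliceosome and Hox lists lie at 0.0581 and -0.0881.

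The genes that degrade, make and bind RA did not move as 1 group. Of 29 tested genes of RA metabolism, reception and response, 1 rose and 3 fell, against 0.612% and 0.837% of all genes tested. At an adjusted p under 0.05, 3 were higher and 8 lower, against 2.02% and 2.67% of all genes tested. The median was 0.0369. *Cyp26a1*, the main enzyme of RA degradation in the early embryo, had 440, 419 and 347 TPM in wild-type cells and 84.3, 113 and 69.0 TPM in the knockout (-2.19, SE 0.18, adjusted p = 0.00137). Its paralogue *Cyp26c1*, which lies next to it on chromosome 19, had 15.8, 13.7 and 19.9 TPM in wild-type cells and 5.10, 7.04 and 4.63 TPM in the knockout (-1.41, SE 0.19, adjusted p = 0.00934), a call lost without wild-type replicate 1 (-1.43). The third enzyme, *Cyp26b1* on chromosome 6, overlapped between genotypes, at 33.4 ± 3.07 and 33.2 ± 10.8 TPM. At day 1 *Cyp26a1* had means of 111 TPM in wild-type cells and 110 TPM in the knockout, so by day 3 the mean had risen further to 402 TPM in wild-type cells and was 88.9 TPM in the knockout.

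*Dhrs3*, which reduces retinaldehyde and so limits RA synthesis, was at 101, 100 and 91.7 TPM in wild-type cells and 51.3, 59.3 and 41.9 TPM in the knockout, under 2-fold (-0.94, SE 0.13, adjusted p = 0.00867). *Rarb*, the receptor gene induced by RA, was at 23.3, 24.1 and 28.1 TPM in wild-type cells and 15, 19.1 and 14.8 TPM in the knockout (-0.60, SE 0.13, adjusted p = 0.0493). The receptors *Rara*, *Rarg*, *Rxra* and *Rxrb* did not pass the test, with log2 fold changes between -0.18 and 0.06. The germ cell genes *Stra8* and *Rec8*, which RA induces, were lower at under 2-fold (-0.46 and -0.34), at means of 300 against 218 TPM and of 318 against 252 TPM. *Foxa1*, a forkhead factor, fell from 52.6 ± 3.46 to 22.6 ± 1.63 TPM (-1.18). *Crabp2*, which carries RA to its nuclear receptors, went the other way at 82.6, 101 and 73.5 TPM in wild-type cells and 148, 141 and 130 TPM in the knockout (0.71, SE 0.12, adjusted p = 0.019). The member of this list that rose was *Dusp6*, described with the ERK genes.

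None of 31 tested Hox genes was called (median -0.0881). *Hoxb8* (-0.88) and *Hoxb9* (-0.62) were lower and *Hoxc8* (0.77) was higher at an adjusted p under 0.05. A wider set was defined from libraries outside this comparison, as the 706 genes called as rising from day 0 to day 1 in both genotypes (2385 genes, 14% of those tested, were called between these days in wild-type and 1592, 9.24%, in knockout cells). Of its 662 genes tested at day 3, 19 rose (2.87%) and 9 fell (1.36%) in the knockout, 110 passed at any fold (16.6%), and the median was 0.0369. Of 275 genes tested among those that had fallen in both, 10 rose (3.64%), 9 fell (3.27%) and 47 passed at any fold (17.1%), with a median of -0.0311. These shares are above the 0.612%, 0.837% and 4.69% of all genes tested, in both directions, and the medians of both sets are near 0.

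To place the RA-responsive genes beside their sequence, the promoters in RefSeq (250 bases before to 50 bases after the gene start, GRCm38.p6), found for 10990 of 17326 symbols tested, were searched on both strands for direct repeats of the half-site that RAR and RXR bind. Exact AGGTCA repeats spaced by 5 or 2 bases were in none of the 10990. With each half-site allowed to read AGGTCA, or with a changed letter AGTTCA, or GGGTCA instead, or else GGTTCA, a choice made after the first search, 4 promoters (0.0364%) held a repeat spaced by 5 bases. They are shown because 2 of the 4 belong to genes described above, *Cyp26a1* and *Rarb*. Each is given 5′ to 3′ on the minus strand of the genome, with the half-sites in capitals and 8 flanking bases on each side.
Cyp26a1, chr19:37697776-37697792: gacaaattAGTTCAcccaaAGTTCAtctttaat
Rarb, chr14:16575513-16575529: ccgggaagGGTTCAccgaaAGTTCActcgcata
Blvrb, chr7:27452399-27452415: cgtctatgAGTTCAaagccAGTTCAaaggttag
Cfap45, chr1:172520909-172520925: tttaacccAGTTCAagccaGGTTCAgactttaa
The *Cyp26a1* and *Rarb* repeats are centred at -24 and -45 from the gene start. Neither *Blvrb*, which encodes biliverdin reductase B, nor *Cfap45*, a cilia and flagella protein, was called. With the same letters, repeats spaced by 2 bases were in 15 promoters (0.136%), of which that of *Slc45a3* belongs to a gene that fell. AGGTCA alone was in 12 of 64 promoters found for genes that rose (18.8%), 9 of 84 for genes that fell (10.7%) and 15% of all. A match is a description of the letters and no evidence of binding.

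The promoter of *Nanog* is shown for the octamer, the motif of Oct4, in the form TTTGCAT (the first 7 letters of ATGCAAAT, read on the other strand), which is in capitals in chr6:122707239-122707538, plus strand:
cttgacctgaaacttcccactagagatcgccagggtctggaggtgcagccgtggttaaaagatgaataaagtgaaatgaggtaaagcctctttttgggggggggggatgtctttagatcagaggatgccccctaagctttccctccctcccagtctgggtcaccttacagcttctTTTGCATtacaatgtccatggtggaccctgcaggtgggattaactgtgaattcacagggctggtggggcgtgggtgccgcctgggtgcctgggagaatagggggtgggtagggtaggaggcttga
The 7 letters, added to the search after the first results, are in 7 of 64 promoters found for genes that rose (10.9%), 4 of 84 for genes that fell (4.76%) and 448 of all 10990 (4.08%). The full octamer ATGCAAAT is in 3 of 64 (4.69%; *Col3a1*, *Egln3* and *Mageb16*), 3 of 84 (3.57%; *Habp2*, *Il33* and *Srgn*) and 172 of 10990 (1.57%). The E-box CACGTG, a motif read by Myc, is in 4.69%, 8.33% and 11.5%. These shares rest on few promoters and were not tested.

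Beyond these pathways, 5 of the 12 largest rises among protein-coding genes of at least 5 TPM in the higher group were X-linked genes known from the germline. *Tex13b* had 19.5, 18.5 and 20.2 TPM in wild-type cells and 100, 121 and 121 TPM in the knockout (2.49, SE 0.10, adjusted p = 9.43e-05). *Rhox5*, a reproductive homeobox gene, had 33.2, 41.5 and 33.2 TPM in wild-type cells and 204, 192 and 145 TPM in the knockout (2.29, SE 0.15, adjusted p = 0.00078). *Rhox6* had 21.4, 17.6 and 15.2 TPM in wild-type cells and 75.2, 76.9 and 78.4 TPM in the knockout (2.04, SE 0.12, adjusted p = 0.00069). Of 10 Rhox genes 5 were tested and 3 rose, against 0.612% of all genes tested, with *Rhox9* the third (2.02). The MAGE family gene *Mageb16*, also X-linked, rose from 1.76 ± 0.456 to 8.73 ± 2.12 TPM (1.81). All 5 were also higher on average in the knockout at the earlier days, for example *Rhox5* at 40.1 against 226 TPM at day 0 and 36 against 205 TPM at day 1. The Rhox genes are a family of related copies, and how reads shared by copies were counted is not given in the sources used here. Of 19 tested germline and meiosis genes (median -0.162) 2 rose, *Prdm14* and *Prdm1*, against 0.612% of all genes tested. *Prdm1*, a repressor of primordial germ cells and other lineages, went from 0.327 ± 0.0313 to 3.25 ± 0.799 TPM (1.66). Its call was lost in 4 of the 6 fits that left out 1 library, those without wild-type replicate 1 or 2 or knockout replicate 2 or 3, at 1.57 to 1.67. *Prdm1* was below 1 TPM in every wild-type library and *Prdm14* in wild-type replicates 2 and 3. Both therefore met the filter only with the knockout libraries, where they are higher.

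The Y-linked genes were at 0 in the knockout line. *Eif2s3y*, a translation initiation factor gene, had 64.4, 70.4 and 65.6 TPM in wild-type cells. *Ddx3y*, an RNA helicase gene, had 52.4, 53.6 and 53.9 TPM, and *Uty*, a histone demethylase gene, 12.5, 15.2 and 14.6 TPM. All 3 were at 0 reads in each knockout library of day 3. If 3 reads, a limit that was set and not estimated, are taken for each of these libraries, the wild-type means were 438-fold, 437-fold and 218-fold higher. These limits cover counting error alone. The same genes were at 0 in the knockout libraries of days 0 and 1. None of 9 tested X-linked partners was called (median 0.0977). The knockout and the absence of Y-linked mRNA fall in the same libraries, and their parts in the other results cannot be told apart.

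*Igfbp3*, which binds insulin-like growth factors outside the cell, was the third of the 12 largest rises. It had 62.6, 56.8 and 60.2 TPM in wild-type cells and 255, 269 and 274 TPM in the knockout (2.13, SE 0.07, adjusted p = 2.63e-05), with a knockout mean 4.44-fold the wild-type mean. Of 9 tested genes of the IGF system 3 rose, against 0.612% of all genes tested (list median 0.105). Besides *Igfbp3* these were *Igfbp4* (32.5 ± 1.56 to 68.1 ± 4.52 TPM, 1.04) and the growth factor *Igf2* (18.4 ± 4.51 to 43.9 ± 11.2 TPM, 1.20). The call of *Igfbp4* was lost without knockout replicate 2 (0.99) and that of *Igf2* without wild-type replicate 1 or 2 or knockout replicate 2 or 3 (1.06 to 1.14). *Igf2* is imprinted, and of 25 tested imprinted genes 2 rose, against 0.612% of all genes tested (median 0.101). At an adjusted p under 0.05, 7 were higher, against 2.02% of all genes tested, with none lower. The zinc finger gene *Plagl1*, the other one to rise, went from 28.0 ± 2.74 to 59.5 ± 10.4 TPM (1.05, and 1.02 or 0.95, not called, without wild-type replicate 1 or knockout replicate 3). *Mest* (0.95), *Phlda2* (0.89), *Peg10* (0.85) and *Cdkn1c* (0.73) stayed under 2-fold.

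Markers of other lineages were low or rose in part. Of 8 tested trophoblast markers 3 rose, against 0.612% of all genes tested (list median 0.547). *Ascl2*, a bHLH factor of the trophoblast and also a Wnt target, had 5.59, 5.21 and 4.43 TPM in wild-type cells and 23.3, 19.5 and 19.3 TPM in the knockout (1.83, SE 0.13, adjusted p = 0.000989). *Tfap2c*, an AP-2 factor of trophoblast and germ cells, had 4.35, 5.86 and 6.87 TPM in wild-type cells and 21.5, 20.5 and 22.3 TPM in the knockout (1.76, SE 0.16, adjusted p = 0.00208). *Hand1*, which is also in the mesoderm list, rose from 30.4 ± 5.85 to 64.8 ± 5.23 TPM (1.08, and 0.97, not called, without wild-type replicate 2), and 2 of the 12 trophoblast markers were at 0 in all 6 libraries. Of 16 tested mesoderm markers 2 rose and 1, *Gata4*, fell (median 0.409), against 0.612% and 0.837% of all genes tested. *Meox1*, a homeobox factor of somites, went from 1.44 ± 0.282 to 7.01 ± 0.492 TPM (1.72). Of 21 neural progenitor markers 8 were tested. All 8 were higher in the knockout on average (median 0.555), against 49.3% of all genes tested. Only 1 rose, *Stmn2*, a tubulin-binding protein of neurons (1.33 ± 0.492 to 4.6 ± 0.342 TPM, 1.28). Its call was lost in 4 of the 6 fits that left out 1 library, those without wild-type replicate 1 or 3 or knockout replicate 2 or 3, at 1.14 to 1.28.

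Of 11 tested fibroblast markers, *Col3a1* alone rose (4.16 ± 0.228 to 10.1 ± 0.721 TPM, 1.10), against 0.612% of all genes tested. The fibroblast sum was 863 to 1248 TPM in wild-type cells and 1125 to 1470 TPM in the knockout, with the ranges overlapping, and its part in the results was not tested. Of 6 tested endothelial and blood markers 1 rose, *Pecam1*, which mESCs also express (1.61 ± 0.235 to 4.83 ± 0.605 TPM, 1.16, a call lost without any wild-type replicate or without knockout replicate 2, at 1.09 to 1.23), 3 of the 13 were at 0 in all 6 libraries, and the sum was 13.9 to 17.9 TPM in wild-type cells and 19 to 21.2 TPM in the knockout. None of 7 neural crest markers and none of 2 tested markers of 2-cell-like cells was called. The summed levels of the core pluripotency list were 2430 to 2685 TPM in wild-type cells and 2748 to 3164 TPM in the knockout. Those of the naive list overlapped, at 493 to 515 TPM in wild-type cells and 485 to 582 TPM in the knockout.

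Other signalling lists had few calls, given here beside 0.612% (rises) and 0.837% (falls) of all genes tested. Of 29 tested *Nodal* and BMP pathway genes 2 rose, the *Nodal* inhibitors *Lefty1* (49.3 ± 12.6 to 114 ± 25.3 TPM, 1.21) and *Lefty2* (28.1 ± 4.29 to 62.2 ± 10.3 TPM, 1.12), and the list median, -0.0563, changed sign between settings. *Lefty1* was not called without wild-type replicate 1 or 3 or knockout replicate 1 or 2 (1.02 to 1.24), and *Lefty2* without wild-type replicate 1 (1.07) or knockout replicate 2 (0.99). Of 34 tested Wnt pathway genes 2 rose and 1 fell (median 0.137). At an adjusted p under 0.05 with any fold, 8 Wnt genes were higher and 2 lower, and 6 *Nodal* and BMP genes were higher and 2 lower. The shares of all genes tested were 2.02% higher and 2.67% lower. *Sfrp1* and *Sfrp5* encode secreted inhibitors that bind Wnt ligands. *Sfrp1* had 28.3, 23.9 and 33.5 TPM in wild-type cells and 66.0, 72.6 and 70.5 TPM in the knockout (1.27, SE 0.12, adjusted p = 0.00271), whereas *Sfrp5* had 104, 108 and 97.4 TPM in wild-type cells and 43.0, 38.7 and 25.3 TPM in the knockout (-1.54, SE 0.18, adjusted p = 0.00556). The zinc finger factor *Sp5*, a Wnt target, rose (1.20). Of 20 tested genes of cholesterol synthesis none was called (list median 0.276). A positive log2 fold change was found in 19, against 49.3% of all genes tested. The test was passed by 6 as higher, against 2.02% of all genes tested, led by *Idi1* (0.94), *Msmo1* (0.85) and *Hmgcs1* (0.80). Of 23 tested p53 targets and of 23 cell cycle genes *Ccnd1*, the gene of cyclin D1 and a member of both lists, alone was called, at 5.55, 6.73 and 7.73 TPM in wild-type cells and 23.2, 21.7 and 23.7 TPM in the knockout (1.64, adjusted p = 0.00135).

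The 12 largest falls also held 6 genes that are in none of the pathways above. *S100g*, the calcium-binding protein calbindin-D9k, had 73.4, 74.8 and 63.8 TPM in wild-type cells and 14.9, 18.0 and 6.2 TPM in the knockout (-2.46, SE 0.33, adjusted p = 0.00898), and its call was lost without wild-type replicate 1 (-2.43). *Pga5*, a pepsinogen gene, fell from 46.5 ± 5.02 to 10.7 ± 2.05 TPM (-2.03), *Hkdc1*, a hexokinase domain gene, from 28.7 ± 0.305 to 7.06 ± 0.961 TPM (-1.89), and *Pdzd3*, a PDZ scaffold of epithelial brush borders, from 15.2 ± 0.879 to 3.66 ± 0.353 TPM (-1.80). *Mybpc3*, a myosin-binding protein of heart muscle, fell from 10.8 ± 1.04 to 1.85 ± 0.526 TPM (-2.06), and *Glipr1* from 14.9 ± 0.951 to 3.38 ± 0.609 TPM (-1.87). These 6 genes did not overlap between genotypes, which the rule for naming the largest falls required. *Pdlim3*, a PDZ and LIM domain protein of muscle, was the twelfth rise, from 1.62 ± 0.322 to 7.41 ± 0.698 TPM (1.69). *Pnpt1*, which was chosen after its values were seen because it encodes another 3′-5′ exoribonuclease, had 67.4, 71.5 and 73.5 TPM in wild-type cells and 194, 236 and 250 TPM in the knockout (1.66, SE 0.10, adjusted p = 0.00069).

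Genes that are not protein-coding gave 59 of the 251 calls, 11 rises and 48 falls, and 47 of the 59 rested on a mean under 30 reads (median 2.33 reads), against 10 of 192 protein-coding calls (median 231 reads). The miRNA gene *Mir301b*, for example, was called as higher from 0, 0 and 1 reads in wild-type and 4, 4 and 3 reads in knockout cells. The pseudogene *Gm10123* had 420, 449 and 445 TPM in wild-type cells and 1705, 845 and 879 TPM in the knockout (1.3), and was not called in 5 of the 6 fits that left out 1 library. Without knockout replicate 1, the highest, its change was 0.98. The reads of a pseudogene and its parent cannot be told apart in these values, and the kit is not stated to keep strand. With a mean of at least 30 reads required, an alternative chosen after seeing the data, 207 genes were called, 95 higher and 112 lower.

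Whether the effect of the knockout at day 3 differed from that at day 1 was tested as a difference of differences over the 12 libraries of both days, and the day 3 and day 1 comparisons share no library. At day 1, 563 of 17582 genes tested were called (3.2%), 111 higher (0.631%) and 452 lower (2.57%) in the knockout. Of 19580 genes tested for the difference, 544 were called (2.78%), 412 above 0 (2.1%) and 132 below (0.674%). The median of all genes was shifted by 0.136, and the split depends on that shift: it was 256 above and 202 below 0 after quantile normalization, which puts the median at 0.00245, and 222 and 239 after scaling to equal medians. The differences given below with a value were called, so by the 2-fold rule each exceeds this shift. They are among 39 flagged in a later section. Of these 39, 33 were still called after quantile normalization and 32 at equal medians.

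Several RA-responsive genes that were lower in the knockout at day 1 overlapped between genotypes or were higher in the knockout at day 3. *Crabp2* had means of 65.9 TPM in wild-type cells and 8.91 TPM in the knockout at day 1 and of 85.5 and 140 TPM at day 3, a difference of effects of 3.49. *Stra6*, the cell-surface receptor for retinol-binding protein, had 15 and 3.76 TPM at day 1 and 8.23 and 7.56 TPM at day 3 (1.66). *Zfp703*, a corepressor gene, had 83.3 and 29.8 TPM at day 1 and 91.3 and 98.0 TPM at day 3 (1.55), and the effects on the homeobox cofactor *Meis2* differed by 1.68. Of the endoderm genes, *Sox7* had 29.7 and 4.91 TPM at day 1 and 59.7 and 34.6 TPM at day 3 (1.61), so its deficit was smaller at day 3, whereas that of *Sox17* appeared after day 1, when it was below 1 TPM in both genotypes (-1.53). For *Gata4*, *Cubn*, *Srgn* and *Lama1*, the difference between days was not called.

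For several pluripotency and ERK genes the effect of the knockout was more positive at day 3 than at day 1. *Nanog* had means of 713 TPM in wild-type cells and 1026 TPM in the knockout at day 1, and its effect at day 3 was larger by 1.38. *Dusp6* had 62.3 and 48.3 TPM at day 1, and between day 1 and day 3 its level fell to 17.1 TPM in wild-type cells and was 55.3 TPM in the knockout (2.00). *Fgf4*, *Spry2*, *Etv5*, *Spred2*, *Sox2*, *Dusp4* and *Spred1* had differences of 1.37, 1.24, 1.23, 1.21, 1.13, 1.16 and 1.00. *Igfbp3* (2.63) and the matrix protein gene *Tgfbi* (2.84) turned from lower to higher in the knockout between the days, at 98.1 and 69.3 TPM and at 165 and 71.9 TPM in wild-type cells and knockout cells at day 1. The opposite turn was seen for the protease inhibitor gene *Serpinb6c* (-3.73), at 0.894 and 10 TPM at day 1 and 23.7 and 10.1 TPM at day 3, and for *Tdh*, the threonine dehydrogenase of mESC metabolism (-2.70), at 10.7 and 34.4 TPM at day 1 and 20.9 and 9.06 TPM at day 3. The fall of *Tdh* at day 3 was not called without wild-type replicate 2 (-0.95).

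**Figure D4:**
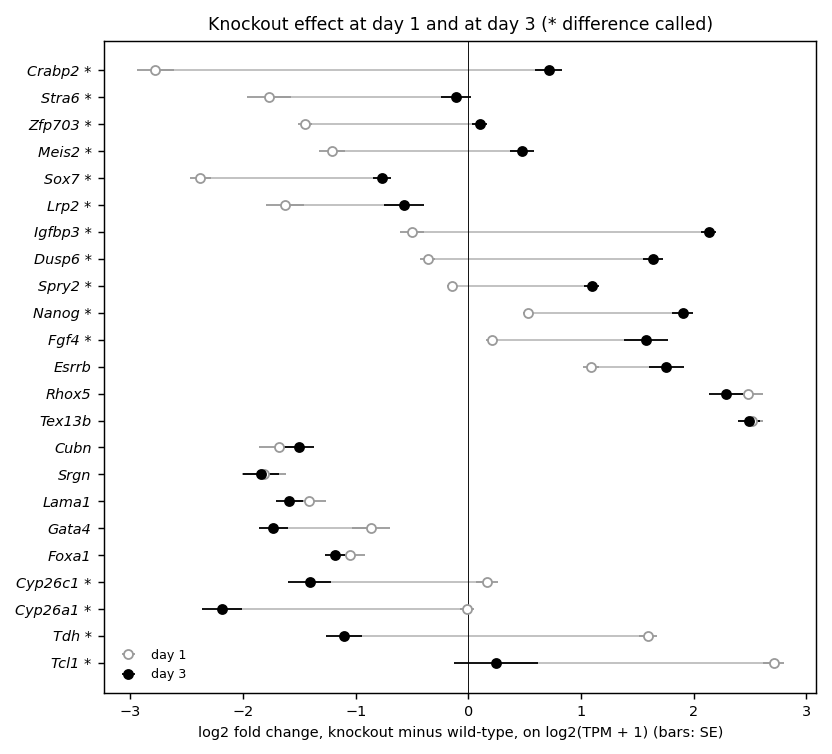
Open circles give the log2 fold change (knockout minus wild-type) at day 1 and filled circles that at day 3, with bars of 1 SE, for 23 genes described in the text; a star marks genes whose difference between the days was called. *Crabp2* moves from -2.78 to 0.71 and *Cyp26a1* from -0.01 to -2.19, while *Tex13b* and *Rhox5* stay above 2 at both days.

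**Figure D5:**
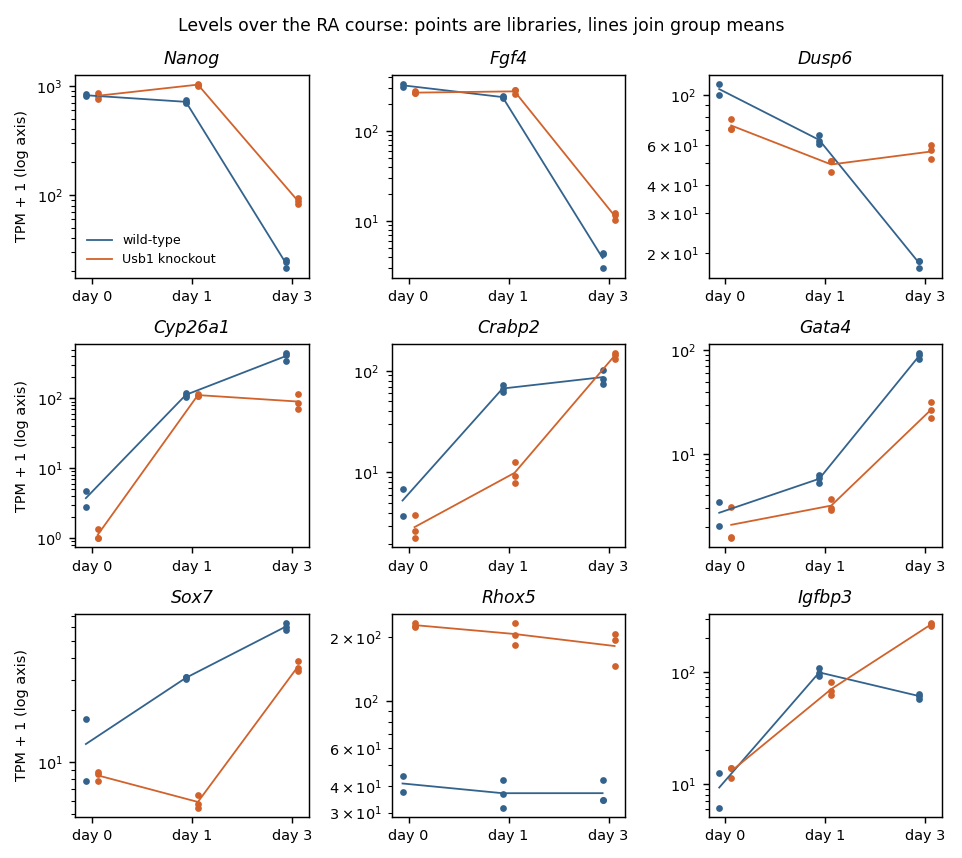
Each panel shows 1 gene, with TPM + 1 on a log axis against the day of RA (evenly spaced), points for libraries and lines joining group means in wild-type (blue) and *Usb1* knockout (orange) cells. The wild-type level of *Nanog* fell from 713 TPM at day 1 to 22.6 TPM at day 3 and the knockout level from 1026 to 87.2 TPM, and *Rhox5* was higher in the knockout at each day.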

How the data were processed

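RNA-seq of *Usb1* knockout and wild-type R1/E cells was analysed. The authors deposited TPM per gene, and the submitters' processing notes name HISAT2 2.1.0, StringTie 1.3.6 and the build GRCm38.p6. The deposited TPM are not counts, so log2(TPM + 1) was used, which understates the change of low genes. Reads were recovered from TPM and GENCODE M21 exon lengths, and 96.3% to 96.7% of values in the day 3 libraries came out whole (within 0.01). Genes were fitted with limma 3.58.1 (R 4.3.3, empirical Bayes with a trend), on the 6 day 3 libraries, and on 12 for the difference between days. The study describes its samples as biological replicates. The script was tested on simulated data. Members and lists were chosen with earlier results of these data known. Named genes are list members, the 12 largest protein-coding rises and falls that did not overlap and reached 5 TPM in the higher group, the 5 largest differences between days in each direction, and up to 4 noncoding genes. Alternatives were another pseudocount (0.1), filters, call rules, scalings, variance model, library sets, replicate block, voom on recovered reads, and each library left out. List counts under these alternatives and a limit of 30 mean reads were added after seeing the data. Some genes are not reported here by name.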

Additional observations from a re-analysis of the deposited data

Results flagged for a closer look

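In 39 of 131 genes that were named for their size of change or listed under RA metabolism, FGF and ERK, pluripotency or primitive endoderm, the effect of the knockout at day 3 differed from that at day 1 (limma, difference of the effects on the log2 scale, adjusted p under 0.05 and at least 2-fold). The difference was above 0 in 26 and below 0 in 13. Of the 39, 10 had been named for the size of this same difference. Others had been named for their change at day 3, which is a part of this difference. The count is therefore partly fixed by the choice of genes. Of the 100 genes that came from the lists alone, 20 were called, against 2.78% of all 19580 genes tested. These lists were chosen with earlier results of the same data known. After quantile normalization 33 and after scaling to equal medians 32 of the 39 were still called, and all 39 kept their sign.

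More positive at day 3 were the RA-responsive genes *Crabp2* (3.49), *Meis2* (1.68), *Stra6* (1.66), *Zfp703* (1.55) and *Cyp26b1* (1.07). So were the FGF and ERK genes *Dusp6* (2.00), *Spry4* (1.65), *Fgf4* (1.37), *Spry2* (1.24), *Etv5* (1.23), *Spred2* (1.21), *Dusp4* (1.16), *Fgfr2* (1.10) and *Spred1* (1.00), the pluripotency factors *Nanog* (1.38) and *Sox2* (1.13) and, in primitive endoderm, *Sox7* (1.61) and *Lrp2* (1.06). Other named genes with a more positive effect were *Tgfbi* (2.84), *Asic2* (2.79), *Foxi3* (2.76), *Igfbp3* (2.63), *Ascl2* (2.46), *Pdlim3* (1.84), *Tfap2c* (1.79) and *Meox1* (1.24). Among these FGF and ERK genes, *Spry4* (0.97), *Spred2* (0.86) and *Fgfr2* (-0.17) were not called at day 3 itself.

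More negative at day 3 were the RA-degrading enzymes *Cyp26a1* (-2.18) and *Cyp26c1* (-1.57). The endoderm factor *Sox17* (-1.53) followed, as did the FGF co-receptor and ligand *Klb* (-1.33) and *Fgf17* (-1.34), and the mESC genes *Tcl1* (-2.46) and *Tdh* (-2.70). *Tcl1*, a coactivator of Akt, had means of 9.08 TPM (wild-type) and 65.0 TPM (knockout) at day 1, and of 1.68 and 2.02 TPM by day 3. Other named genes with a more negative effect were *Serpinb6c* (-3.73), *Mybpc3* (-2.15), *Slc39a8* (-2.14), *Pdzd3* (-1.91), *Glipr1* (-1.63) and *Hkdc1* (-1.29).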

How the results depend on the processing

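None of the 77 named genes called at day 3 changed direction under any alternative run, whereas the medians of 11 of 40 lists, all between -0.0881 and 0.268, changed sign under at least 1. The 251 calls at day 3 (106 higher, 145 lower) numbered 192 to 364 under the other pseudocount, filters, scalings, variance model, fits and gene sets. With voom on recovered reads, 179 were higher. With an adjusted p alone there were 812 (350 and 462), and with a 1.5-fold threshold 569 (231 and 338). Leaving out 1 library gave 143 to 230 calls, 64 to 104 higher and 79 to 126 lower, with wild-type replicates 1 (143) and 2 (163) moving the count by over 1.5 times. The change of *Usb1* was -1.04 to -0.82 in these fits, and -1.04, past 2-fold, without knockout replicate 3.

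The 544 differences between days (412 above 0, 132 below) became 256 above and 202 below after quantile normalization and 222 and 239 at equal medians. With an adjusted p alone they were 1799 (1390 and 409), and with 1.5-fold 1174 (915 and 259). They were 421 to 676, 314 to 542 and 101 to 134 with 1 library left out. Of the 77 named genes, 55 were called in every fit that left out 1 library. Calls were lost for 9 without a filter on low values, 4 with the replicate block, 4 with voom, 3 in the fit of 17 libraries, 2 with a pseudocount of 0.1, and 1 each at equal medians and with the robust variance model.

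Whether the replicate numbers pair the samples could not be settled from 3 libraries per genotype. Same-numbered day 3 libraries of both genotypes deviated together by r = 0.0753, -0.0378 and 0.171, against at most 0.124 between different numbers. Of the 3 numbers, 2 correlated best with their own. With the replicate block 210 genes were called (95 higher, 115 lower), 202 of them shared with the 251.

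Few reads limit what can be called, and 3 reads were set as the limit for a gene at 0 reads. The results rest on 1 knockout line.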

Other observations

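Of 18 tested collagen genes other than type IV, 2 rose (against 0.612% of all genes tested), *Col3a1* and *Col9a2*, and none fell. At an adjusted p under 0.05 with any fold, 5 were higher (against 2.02% of all genes tested), and 13 did not pass the test (list median 0.171). *Col2a1*, the collagen of cartilage, was at 14.4, 14.7 and 18.4 TPM in wild-type cells and 32.2, 37.3 and 27.7 TPM in the knockout (0.99, adjusted p = 0.0113). *Col9a2* was called in 1 of the 6 fits that left out 1 library. Of 27 epithelial and mesenchymal genes none was called. Of the 14 epithelial genes, *Krt19* (-0.90), *Cldn6* (-0.81) and *Ocln* (-0.75) were lower and *Cldn4* (0.43) higher at an adjusted p under 0.05, and 10 did not pass. Of the 13 mesenchymal genes, *Cdh2* (0.69), *Mmp2* (0.66) and *Twist1* (0.88) were higher and 10 did not pass.

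Of 6 tested Ifitm genes 2 rose (median 0.365), against 0.612% of all genes tested. *Ifitm3*, an interferon-inducible membrane protein also made by germ cells, had 142, 143 and 128 TPM in wild-type cells and 357, 323 and 301 TPM in the knockout (1.24, adjusted p = 0.000837). Its means were 195 and 934 TPM at day 0. The let-7 regulator *Lin28b* was higher under 2-fold (0.78), while *Lin28a* overlapped between genotypes (-0.03), and *Hmga2*, a chromatin protein repressed by let-7, rose from 52.1 ± 2.04 to 112 ± 12.9 TPM (1.09, adjusted p = 0.00167).

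The protein-coding genes of chromosome 8, which holds *Usb1*, had a median log2 fold change of 0.0915, with 0.0389, 0.136 and 0.119 in the knockout replicates. It was -0.0407 at day 1 and 0.0635 at day 0. The medians of the other autosomes were -0.0258 to 0.0657 at day 3, -0.179 to -0.103 at day 1 and -0.0679 to -0.00808 at day 0. Chromosome 8 thus had the highest median of the autosomes at each day, and the reason was not tested. The 13 mitochondrially encoded mRNAs had a median of -0.276, and none passed the test.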
